A study of Mus musculus with 38 samples.

Results

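The mesothelial markers were the 7 genes Msln, Upk3b, Upk1b, Lrrn4, Gpm6a, Muc16 and Wt1, chosen by symbol from the 55487 genes of the count tables. Every one of the 7 was found once, and all 7 passed the filter on low values in tumors and in cell lines. Total RNA was sequenced from omental tumors of 2 mouse models of high-grade serous ovarian cancer (HGSOC) and from the 2 cell lines that form them. The 60577 line, chemo-sensitive in mice, was grown in female FVB mice, and the HGS2 line, partially responsive, in female C57BL/6J mice, so line and strain cannot be told apart. Mice were injected intraperitoneally at 8 to 9 weeks of age and received 3 weekly doses of carboplatin (20 mg/kg) with paclitaxel (10 mg/kg) or vehicle, starting 21 days (60577) or 49 days (HGS2) after injection. TP1, TP2 and TP3 denote collection of the tumors 1, 7 and 21 days, respectively, after dosing ended. In 60577 there were 3 control and 3 chemo-treated tumors at TP1, 3 control and 4 treated at TP2, and 4 treated at TP3. In HGS2 there were 3 control and 3 treated tumors at TP1, 4 control and 3 treated at TP2, and 4 treated at TP3. Since controls were lacking at TP3, the TP3 tumors were set against the TP2 controls, where time and treatment cannot be told apart. Each line was also sequenced in monoculture with 2 libraries, and the alleles of the lines are not given in the sources used here.

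Mesothelium is the flat epithelium that lines the peritoneal cavity and covers the omentum, the fat-rich fold to which ovarian cancer cells spread. It arises from the coelomic epithelium, and so does the surface epithelium of the ovary. Ovarian cancer cells and mesothelial cells share several surface proteins. Msln encodes mesothelin, a lipid-anchored surface glycoprotein, and Muc16 encodes the large membrane mucin that carries the CA125 epitope and binds mesothelin. Upk3b and Upk1b belong to the uroplakins, membrane proteins best known from the bladder lining, of which Upk1b is a tetraspanin. Lrrn4 and Gpm6a encode membrane proteins first described in neurons, a leucine-rich repeat protein and a relative of the myelin proteolipid protein. Wt1 encodes a zinc-finger transcription factor needed in the embryo for the coelomic epithelium and the organs that form from it.

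The genes lay on 6 chromosomes of GRCm38. Msln (ENSMUSG00000063011) was at chr17:25748613-25754378 on the minus strand, Upk3b (ENSMUSG00000042985) at chr5:136038496-136046487 on the plus strand and Upk1b (ENSMUSG00000049436) at chr16:38773184-38800328 on the minus strand. Lrrn4 (ENSMUSG00000043110) was at chr2:132868305-132880891 on the minus strand and Wt1 (ENSMUSG00000016458) at chr2:105126529-105173616 on the plus strand of the same chromosome. Gpm6a (ENSMUSG00000031517) was at chr8:54954843-55060871 on the plus strand and Muc16 (ENSMUSG00000109564) at chr9:18495455-18674530 on the minus strand. In the GENCODE annotation, Gpm6a overlapped 5 provisional gene models on its own strand, so part of its reads could have been counted to those, and Muc16 overlapped 1 small RNA gene on the opposite strand. The other 5 genes overlapped no annotated gene.

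The letters upstream of the starts of the markers are shown so that they can be set side by side. RefSeq promoters (build GRCm38.p6) were matched by symbol for 4 of the 7 genes, with 5 starts, and each sequence gives the 250 bases before the start, 5′ to 3′ on the gene's strand. Capitals mark every match, on either strand, to GGAATG, the core letters bound by TEAD factors, or to GTGGGNG, the core letters bound by WT1 and related zinc fingers. The positions are chr5:136038246-136038495 (plus) for Upk3b, chr2:132880863-132881112 (minus) for Lrrn4, chr8:54779184-54779433 (plus) for Gpm6a and chr9:18674604-18674853 (minus) for Muc16.
Upk3b: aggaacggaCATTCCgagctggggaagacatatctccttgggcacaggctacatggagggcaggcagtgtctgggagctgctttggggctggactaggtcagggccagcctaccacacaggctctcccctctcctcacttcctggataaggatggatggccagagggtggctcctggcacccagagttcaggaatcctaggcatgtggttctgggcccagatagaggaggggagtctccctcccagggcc
Lrrn4: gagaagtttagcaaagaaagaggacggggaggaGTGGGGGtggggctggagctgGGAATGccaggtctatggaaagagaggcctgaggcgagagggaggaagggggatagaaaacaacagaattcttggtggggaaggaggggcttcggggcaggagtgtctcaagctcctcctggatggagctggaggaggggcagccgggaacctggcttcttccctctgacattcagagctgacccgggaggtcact
Gpm6a: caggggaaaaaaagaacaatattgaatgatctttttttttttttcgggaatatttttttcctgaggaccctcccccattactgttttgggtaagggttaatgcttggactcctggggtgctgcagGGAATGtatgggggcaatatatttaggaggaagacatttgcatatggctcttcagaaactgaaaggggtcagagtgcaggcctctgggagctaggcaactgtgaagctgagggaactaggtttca
Muc16: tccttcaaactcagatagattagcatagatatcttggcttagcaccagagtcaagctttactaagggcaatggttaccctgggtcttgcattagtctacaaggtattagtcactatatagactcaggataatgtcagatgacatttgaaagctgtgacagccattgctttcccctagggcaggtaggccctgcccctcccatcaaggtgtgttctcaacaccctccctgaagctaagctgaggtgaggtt
The TEAD letters stood once in the windows of Upk3b, Lrrn4 and Gpm6a, whereas 12.6% of the 32851 promoters in the table held them. The WT1 letters stood once, in Lrrn4, and 28.1% of all promoters held them. The 2 motifs did not overlap each other in these windows. Neither was found in Muc16 or before the second start of Gpm6a at chr8:54954478-54954727. That second window, which is not printed, ends just before the start of the counted Gpm6a gene at 54954843. The printed Gpm6a window, with its TEAD match, belongs to a start that lies upstream of and outside the gene as counted. A match describes letters only, and no binding was measured.

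Expected counts summed to between 17839641 and 49299421 in tumors and between 31633099 and 42461989 in cell lines. Levels are given as CPM, the counts scaled to a fixed library total, after scaling of all 38 libraries together, as mean ± SD where a mean is given. A gene was called changed where edgeR's quasi-likelihood test gave a Benjamini-Hochberg adjusted p (over all genes tested) below 0.05 and the absolute log2 fold change was above 1. In bulk RNA, fewer cells of a type and less RNA per cell cannot be told apart, here or in any result that follows. Several HGS2 libraries stood apart. HGS2 TP1 control replicates 1 and 3 held 99.2 and 189 CPM summed over the 7 markers, against 2185 CPM in replicate 2 and between 2259 and 3120 CPM in the 4 TP2 controls. HGS2 TP1 control 3, TP2 control 2 and TP3 treated 2 held 56739, 108797 and 56615 CPM of 6 pancreatic acinar genes, whereas the median was 73.0 CPM in HGS2 controls and 58.2 CPM in HGS2 treated tumors. HGS2 TP3 treated 1, which is absent from the study's tables, was low in the markers (283 CPM in sum) and was left out of the tests, although its levels are given.

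All 7 markers were expressed in control tumors of both models, although HGS2 TP1 controls 1 and 3 held little of them. Per length, as CPM per kilobase of exon (RPKM), Upk3b led in 60577 TP1 controls with 356 ± 18.8 (SD, n = 3), which placed it 32nd among 21974 protein-coding genes. Upk1b followed at 90.2 ± 8.15 RPKM, then Wt1 at 66.6 ± 3.32 and Msln at 64.9 ± 2.90, whose ranges of 1 SD overlapped. Lrrn4 stood at 56.7 ± 1.33 RPKM and Gpm6a at 46.3 ± 6.84 RPKM. Muc16, whose exons span 26350 bases, was the lowest per length at 14.7 ± 0.880 RPKM, with no overlap of these ranges with any other marker. In HGS2 TP2 controls (n = 4) the order was Upk3b (307 ± 86.1 RPKM), Upk1b (132 ± 44.0), Lrrn4 (97.7 ± 18.5), Msln (48.1 ± 11.95), Gpm6a (44.4 ± 9.02), Wt1 (35.8 ± 5.26) and Muc16 (11.03 ± 2.40). Of these neighbors, the ranges of 1 SD overlapped for Upk1b and Lrrn4, and among Msln, Gpm6a and Wt1. In HGS2 TP1 controls the means were lower, from 88.2 RPKM for Upk3b, 361st among protein-coding genes, to 3.38 RPKM for Muc16, which stood 9101st.

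The cell lines in monoculture, which hold no host cells, expressed all 7 markers. Msln was at 555 and 715 CPM in the 2 libraries of the 60577 line and at 674 and 356 CPM in the HGS2 line, above each of the 34 tumors, whose highest value was 230 CPM. Upk3b was at 1958 and 2138 CPM in the 60577 line and at 993 and 559 CPM in the HGS2 line. Upk1b reached 512 and 504 CPM in the 60577 line and 495 and 286 CPM in the HGS2 line. Averaged over libraries, the 60577 line exceeded its control tumors 3.37-fold in Msln and 3.04-fold in Upk1b, but only 1.65-fold in Upk3b. Wt1, at 415 and 397 CPM in the 60577 line, was 1.02 times its mean in control tumors, and Muc16, at 214 and 288 CPM, was 0.711 times it. In the HGS2 line, Msln was 4.77 times, Gpm6a 3.25 times and Upk3b 1.03 times the mean of the 7 HGS2 controls. That mean includes TP1 controls 1 and 3, which held little of the markers. Against the mean of the 4 TP2 controls alone, Upk3b was lower in the line (776 against 1084 CPM). Msln (515 against 147 CPM) and Gpm6a (332 against 143 CPM) were still higher in the line. Lines and tumors were deposited in separate tables, so these levels are set side by side without a test. In tumors, marker RNA from implanted cells and from host cells cannot be told apart.

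**Figure D1:**
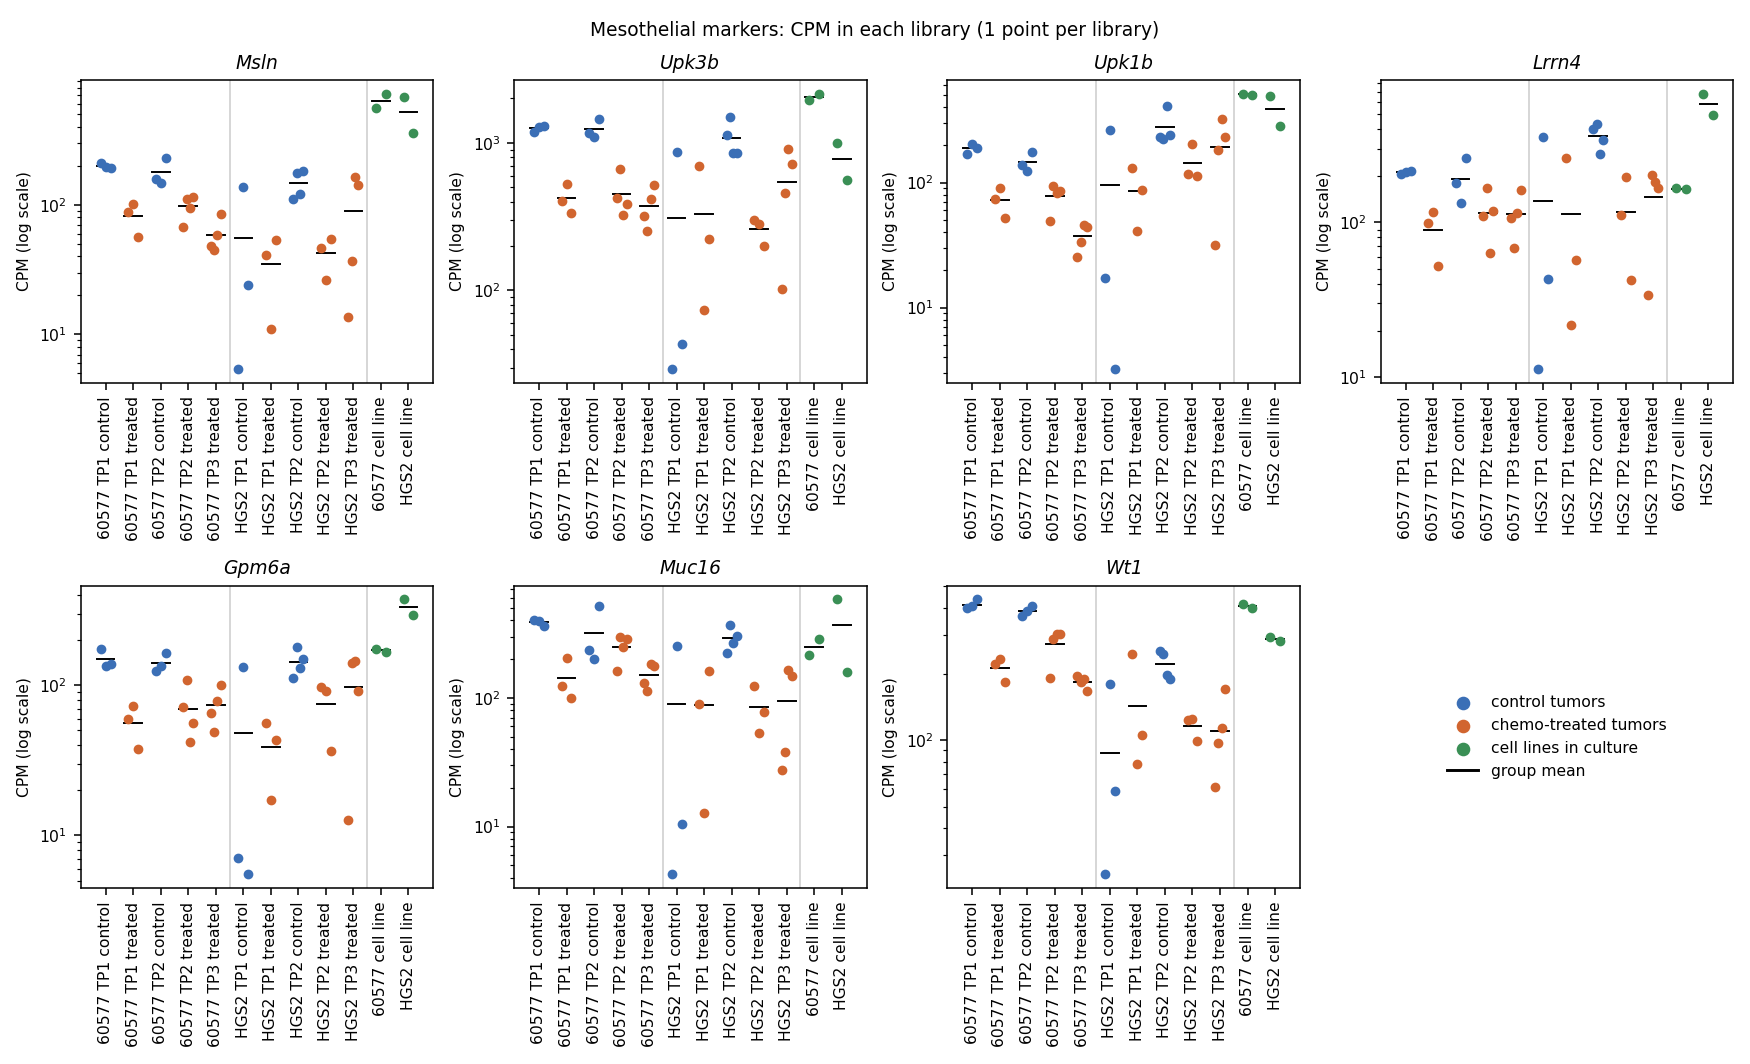
CPM (log axis) of each marker in every library, by group, with the group mean as a black line. In 60577 the 6 control tumors sit close together and the treated tumors mostly below them, in HGS2 the TP1 controls spread over more than 1 decade for every marker but Wt1, and in Msln both lines (green) sit above every tumor.

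The lines and tumors were compared with other marker lists. Of 18 further mesothelial genes, 16 reached 1 CPM in a library of the 60577 line and 15 in the HGS2 line, while Calb2, the calretinin gene often used to stain mesothelium, had no count in either line or in 3 of the 4 control groups. Of 14 Müllerian and epithelial genes, 10 reached 1 CPM in a library of the 60577 line and 8 in the HGS2 line, and the list summed to between 4647 and 4911 CPM and between 955 and 1532 CPM. Sox17 had no count in either line. Pax8, a defining factor of Müllerian epithelium and of human HGSOC, was at 0.272 ± 0.0155 CPM in the 60577 line and 0.0346 ± 0.0490 CPM in the HGS2 line (n = 2 each). Wfdc2, which encodes the HGSOC serum marker HE4, was at 0.0118 and 0.112 CPM on average. Epcam, a defining epithelial adhesion gene, averaged 3.97 CPM in the 60577 line and 0.0858 CPM in the HGS2 line. Among the genes of the list at higher levels, Krt19 averaged 1615 CPM in the 60577 line and 734 CPM in the HGS2 line, Krt18 averaged 1227 and 152 CPM, Krt8 averaged 1235 and 123 CPM, and the E-cadherin gene Cdh1 averaged 48.8 and 11.6 CPM. A list of 5 genes of the bladder lining summed to at most 0.802 CPM in the lines and 13.6 CPM in tumors, and Upk2 had no count in any control tumor or line. Upk1b and Upk3b were thus the only 2 of 6 uroplakin genes tested, since the other 4 did not pass the filter.

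In 60577, treatment went with lower calls for most of the markers at TP1 and TP3 and for fewer at TP2. Before treatment effects, the control tumors of TP1 and TP2 were compared, and none of the 7 markers was called between them, with log2 differences from -0.36 (Upk1b) to -0.02 (Upk3b). No gene at all was called there (0% of 16241), no marker had an unadjusted p below 0.05 in edgeR, and limma-voom and DESeq2 called no marker either.

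Upk3b, the most abundant marker, was called lower at all 3 time points. Its levels were 1180, 1285 and 1303 CPM in TP1 controls and 404, 528 and 332 CPM in TP1 treated tumors. TP2 controls held 1164, 1086 and 1444 CPM, TP2 treated tumors 424, 663, 326 and 383 CPM, and TP3 treated tumors 319, 254, 413 and 518 CPM. All 11 treated tumors thus lay below all 6 controls. Upk3b fell by 1.57 on the log2 scale at TP1 (SE 0.28, 2.98-fold lower, adjusted p from edgeR 0.00060) and by 1.47 at TP2 (SE 0.25, adjusted p from edgeR 0.00022). TP3 tumors were lower than TP2 controls by 3.27-fold (log2 fold change -1.71, SE 0.25, adjusted p from edgeR 5.65e-05).

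Msln, the mesothelin gene, was at 209, 197 and 191 CPM in TP1 controls and at 88.6, 102 and 56.3 CPM in TP1 treated tumors. At TP2 it was at 157, 148 and 230 CPM in controls and at 67.4, 111, 95.1 and 116 CPM in treated tumors, and at TP3 at 48.1, 44.8, 58.6 and 84.2 CPM. No treated tumor overlapped the controls at any time point. Msln fell by 1.27 at TP1 (SE 0.26, adjusted p from edgeR 0.0022). Its difference at TP2 of -0.88 (SE 0.24, adjusted p from edgeR 0.0061) did not pass the fold limit, and TP3 tumors were 3.01-fold below TP2 controls (adjusted p from edgeR 7.88e-05).

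Muc16 encodes the mucin partner of mesothelin and, like Lrrn4, was not below all controls in treated tumors at TP2. It was at 407, 396 and 362 CPM in TP1 controls and at 124, 203 and 100.2 CPM in TP1 treated tumors. TP2 controls held 235, 202 and 515 CPM and TP2 treated tumors 161, 299, 247 and 285 CPM, so that the groups overlapped at TP2. TP3 treated tumors held 131, 114, 183 and 177 CPM, again below all TP2 controls. The log2 fold change was -1.44 at TP1 (SE 0.34, adjusted p from edgeR 0.0047), -0.37 at TP2 (SE 0.31, adjusted p from edgeR 0.319) and -1.06 at TP3 against TP2 controls (SE 0.31, adjusted p from edgeR 0.0097). The TP3 call was lost without TP2 control 3 (-0.54, adjusted p from edgeR 0.121), and also without TP3 treated 1 (-0.998) or 2 (-0.95). It was lost as well with limma-voom and with both models fitted together, and was kept in 6 of 8 alternative settings.

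Upk1b, the tetraspanin, had the largest estimated fall of the markers at TP3 against TP2 controls. Its log2 range of 2 SE on either side (-2.4 to -1.5) overlapped those of Upk3b (-2.2 to -1.2) and Msln (-2.1 to -1.1). Upk1b was at 170, 204 and 191 CPM in TP1 controls, 73.8, 90.4 and 52.1 CPM in TP1 treated tumors, and 138, 124 and 176 CPM in TP2 controls. TP2 treated tumors held 49.2, 94.3, 82.6 and 84.9 CPM and TP3 treated tumors 25.4, 33.3, 45.6 and 43.9 CPM, and no treated tumor reached a control at any time point. Upk1b fell by 1.38 at TP1 (SE 0.26, adjusted p from edgeR 0.00093), was lower by 0.92 at TP2 without passing the fold limit (SE 0.23, adjusted p from edgeR 0.0039), and was 3.92-fold lower at TP3 than in TP2 controls (adjusted p from edgeR 9.99e-06).

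Gpm6a and Lrrn4 encode the membrane proteins first known from neurons. Gpm6a was at 174, 134 and 139 CPM in TP1 controls, 59.5, 72.3 and 37.4 CPM in TP1 treated tumors, and 124, 134 and 163 CPM in TP2 controls. It was at 71.3, 109, 42.0 and 56.2 CPM in TP2 treated and at 65.4, 49.2, 78.7 and 100.2 CPM in TP3 treated tumors, all below the TP2 controls. Gpm6a fell by 1.40 at TP1 (SE 0.32, adjusted p from edgeR 0.0040) and by 1.02 at TP2 (SE 0.29, adjusted p from edgeR 0.0080). The TP2 call was lost without TP2 control 3 (-0.91), TP2 treated 3 (-0.84) or TP2 treated 4 (-0.93), and the TP3 value of -0.93 (SE 0.29, adjusted p from edgeR 0.015) missed the fold limit, which it passed without TP2 control 1 (-1.01) or TP3 treated 4 (-1.11).

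Lrrn4 was at 205, 212 and 215 CPM in TP1 controls and at 99.2, 117 and 52.4 CPM in TP1 treated tumors, which did not overlap. TP2 controls held 180.0, 134 and 261 CPM, TP2 treated tumors 110.3, 168, 63.1 and 118 CPM, and TP3 treated tumors 107, 68.0, 115 and 163 CPM, so at both later time points the groups overlapped. Lrrn4 fell by 1.23 at TP1 (SE 0.36, adjusted p from edgeR 0.017), a call that was lost without TP1 treated 3 (-0.96, adjusted p from edgeR 0.075). Its log2 fold changes of -0.75 at TP2 (SE 0.33) and -0.75 at TP3 (SE 0.33) had adjusted p from edgeR of 0.065 and 0.071.

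Wt1, the transcription factor, had the tightest controls, with 396, 405 and 436 CPM at TP1 and 365, 388 and 407 CPM at TP2. Treated tumors held 221, 234 and 183 CPM at TP1, 192, 289, 305 and 303 CPM at TP2, and 196, 183, 190.1 and 168 CPM at TP3. No treated tumor overlapped the controls. The TP1 difference of -0.95 (SE 0.15, adjusted p from edgeR 0.00029) stayed inside the fold limit, except without TP1 treated 2 (-1.02), and the TP2 difference was -0.52 (SE 0.14, adjusted p from edgeR 0.0052). At TP3, Wt1 was 2.09-fold below TP2 controls (log2 fold change -1.06, SE 0.14, adjusted p from edgeR 2.01e-05).

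**Figure D2:**
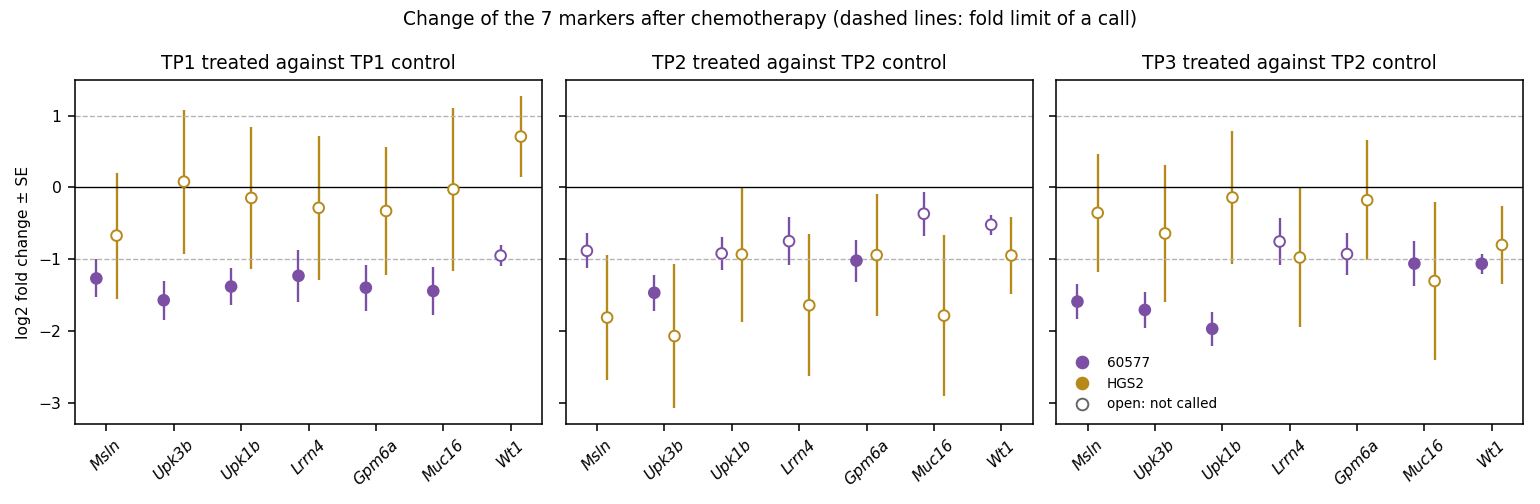
log2 fold change ± SE of each marker in treated against control tumors at TP1, TP2 and TP3, for 60577 (purple) and HGS2 (ochre), with filled points for genes called. In 60577, 6, 2 and 5 of the 7 markers are filled, and in HGS2, where the error bars are longer, none is.

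Counted together, 6 of 7 markers were called lower at TP1, 2 at TP2 (Upk3b and Gpm6a) and 5 at TP3 against TP2 controls (Msln, Upk3b, Upk1b, Muc16 and Wt1), and none was called higher. At TP1, 15.6% of the 16241 genes tested were called and 5.96% were called lower. At TP2, 24.4% were called and 9.61% lower, and at TP3 24.4% and 10.2%. Every treated tumor was below every control for 7 of 7 markers at TP1 (29.6% of all genes), 5 of 7 at TP2 (25.3%) and 6 of 7 at TP3 (28.9%). The TP2 and TP3 comparisons share the TP2 controls. With the replicate number as a block, 4 markers were called at TP2, as Msln (-1.03, adjusted p from edgeR 0.0030) and Upk1b (-1.02, adjusted p from edgeR 0.0030) passed the fold limit. Fitted together with the HGS2 tumors, which share one estimate of the spread, the log2 fold changes moved by less than 0.05, but 0 markers were called at TP1, 0 at TP2 and 3 at TP3 (Msln, Upk1b and Wt1).

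Between treated 60577 tumors, the markers differed little from TP1 to TP2, with 0 of 7 called (6.02% of genes were called) and log2 fold changes from 0.08 (Upk3b) to 0.79 (Muc16). Muc16 (adjusted p from edgeR 0.088) and Wt1 (0.35, adjusted p from edgeR 0.091) were the 2 markers with an unadjusted p below 0.05. limma-voom and DESeq2 called none, and Muc16 was called without TP1 treated 2 (1.13). From TP2 to TP3, Upk1b fell by 1.05 (SE 0.22, adjusted p from edgeR 0.0049), the only marker called, where 7.87% of genes were called and 4.4% lower. That call was lost without TP2 treated 2 (-0.95) or TP3 treated 1 (-0.91), without a filter on low counts (-0.996) and with edgeR's own filter (-0.98). Msln (-0.71, adjusted p from edgeR 0.028) and Wt1 (-0.54, adjusted p from edgeR 0.0080) were below the limit on fold, and Gpm6a was the highest at 0.09.

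Other genes of mesothelium were lower along with the markers in treated against control 60577 tumors. Of 18 further mesothelial genes 16 were tested, and 9 were called lower and none higher at TP1, with a median log2 fold change of -1.29 against -0.0021 over all genes. At TP1 these included the keratin genes Krt18 (-2.11), Krt7 (-1.98) and Krt8 (-1.92), and Pkhd1l1 (-1.91), a membrane protein gene. At TP2 again 9 of 16 were called lower (median -1.16), led by Krt18 (-3.15), Dmkn (-3.09), Krt8 (-2.98) and Krt19 (-2.42). At TP3 it was 10 of 16 (median -1.32), led by Krt18 (-4.13), Dmkn (-3.66), Krt8 (-3.56) and Krt19 (-2.69). The medians of the 7 markers were -1.38, -0.88 and -1.06. Keratins mark epithelial cancer cells as well as mesothelium, and 4 of these genes stood in both lists. Between treated tumors, Dmkn was called lower from TP1 to TP2 (-1.16), where the marker changes ran from 0.08 to 0.79. From TP2 to TP3, Prg4 was called higher (1.83), where Upk1b was called lower. No other gene of the list was called in these 2 comparisons. Its medians were -0.09 and -0.37, beside 0.30 and -0.54 for the markers.

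The transcription factors of the coelomic epithelium were divided. At TP1, 4 of 10 were called lower, among them Bnc1 (-1.56), Gata4 (-1.21) and Lhx9 (-1.14), and Osr1 was called higher (1.79). At TP3, 3 were lower, led by Gata4 (-2.40) and Tbx18 (-1.68), and 2 were higher, Tcf21 (2.91) and Osr1 (2.69). At TP2, Gata4 (-1.62) was lower, and Osr1 (1.65) and Tcf21 (1.39) were higher. Osr1 and Tcf21 are also known from fibroblasts of visceral organs. Relatives of the markers by name or family were divided as well. Of 13 listed, 6 were tested, and at TP1 Lrrn4cl (1.07) and Gpm6b (1.06) were called higher and Lrrn1 (-2.80) lower. At TP2, Lrrn4cl (1.21) was higher and Muc1 (-1.01) lower, and at TP3 Gpm6b (1.98) and Lrrn4cl (1.77) were higher and Muc1 (-1.92) lower.

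Genes of epithelium and of dividing cells fell in the same tumors, and those of fat and connective tissue rose. Of the Müllerian and epithelial list 6 of 11 tested genes were called lower at TP1, 8 at TP2 and 9 at TP3, Cdh1 among them (-2.54 at TP2 and -3.28 at TP3), while Sox17 was higher (2.76 at TP2 and 2.76 at TP3). All 5 proliferation genes were called lower at each time point, for instance Ccnb1 (-2.26, -2.64 and -3.48) and Cdk1 (-1.85, -2.54 and -2.91). Adipocyte genes were called higher, 7 of 8 at TP1, 7 at TP2 and 8 at TP3, for instance Adipoq (6.45, 6.32 and 9.18), and so were 7, 4 and 5 of 8 fibroblast genes, for instance Dpt (3.27, 2.46 and 4.71). Of 7 leukocyte genes, 4 were called higher at each time point, Cd3e among them (1.60, 2.69 and 2.84), and of 6 endothelial genes 0, 1 and 2, with Vwf (1.84 and 2.28) at TP2 and TP3. S100a8 was called higher at TP1 (2.50) and lower at TP2 (-3.16) and TP3 (-2.80). Tubb3, a tubulin gene in the neural list, was lower at TP2 (-3.01) and TP3 (-3.00), and Syt1 was lower at TP1 (-1.38) and higher at TP3 (1.08).

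The acinar genes did not move in parallel. None of 6 was called at TP1 or TP3, and all 6 were called lower at TP2, for instance Prss2 (-7.56), where TP2 control 1 held 1342 CPM of them. The granulosa gene Inha was lower at TP3 (-1.43). The adipocyte list summed to between 41.7 and 64.1 CPM in 60577 controls and to between 44.9 and 3570 CPM in treated tumors. TP1 treated 3 had the lowest marker sum of its group, 814 CPM, at an adipocyte sum of 44.9 CPM, within the range of the controls, and TP1 treated 1 had 1070 CPM of markers at 87.1 CPM. The fibroblast list summed to between 4533 and 7485 CPM in 60577 controls and 6450 and 22381 CPM in treated tumors, and the leukocyte list to between 124 and 245 CPM and between 377 and 627 CPM. The part of these lists in the change of the markers was not tested.

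**Figure D3:**
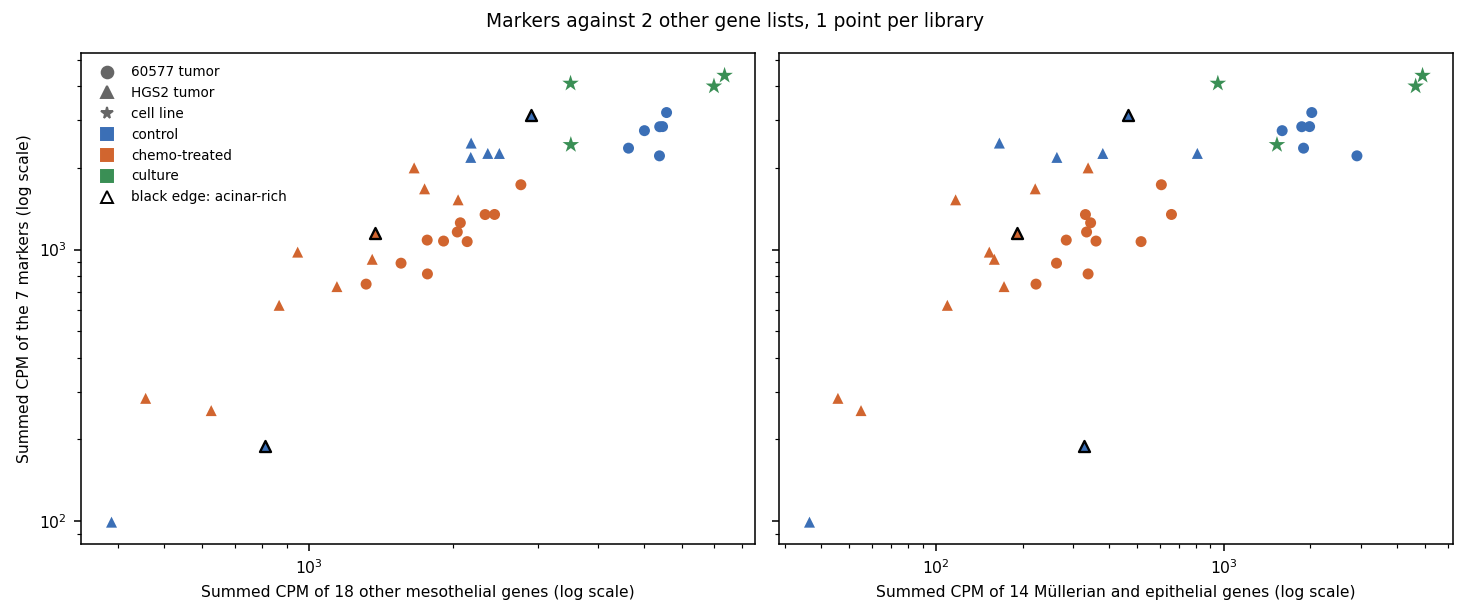
Summed CPM of the 7 markers (both axes are log scales) against the summed CPM of 18 other mesothelial genes (left) and of 14 Müllerian and epithelial genes (right), 1 point per library, with the 3 acinar-rich tumors edged in black. In 60577 all 11 treated tumors (746 to 1733 CPM of markers) lie below and to the left of the 6 controls (2214 to 3196 CPM), and the lowest points are HGS2 TP1 controls 1 and 3.

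In HGS2, none of the markers was called in any comparison of treatment or time, and the TP1 tumors spread widely. At TP1, Upk3b was at 29.4, 861 and 43.7 CPM in controls and at 699, 73.8 and 223 CPM in treated tumors. Muc16 was at 4.25, 252 and 10.55 CPM in controls and at 89.8, 12.7 and 161 CPM in treated tumors. Wt1 was at 24.6, 179 and 58.9 CPM in controls and at 247, 78.1 and 106 CPM in treated tumors. In every marker, control replicate 2 lay far above replicates 1 and 3, and the groups overlapped. Msln was at 5.41, 137 and 24.2 CPM in controls and at 40.8, 11.03 and 53.5 CPM in treated tumors, and Lrrn4 at 11.27, 358 and 43.3 CPM and at 263, 21.8 and 57.2 CPM. Upk1b was at 17.2, 265 and 3.22 CPM in controls and at 130.0, 40.8 and 87.9 CPM in treated tumors, and Gpm6a at 7.05, 132 and 5.50 CPM and at 55.7, 17.1 and 43.2 CPM. Treated replicate 2 was the lowest of its group in all 7 markers. The log2 fold changes ran from -0.67 (Msln, SE 0.88) to 0.71 (Wt1, SE 0.57), and 0 of 7 markers, like 0% of all genes, were called. No marker had an unadjusted p below 0.05 in edgeR, and limma-voom and DESeq2 called none. A range of 2 standard errors on either side left Msln between -2.43 and 1.09, so a change of the size seen in 60577 was not detectable at this spread.

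The direction at TP1 rested on single libraries. Without control replicates 1 and 3, which leaves 1 control that is assumed to vary like the other groups, the changes ran from -1.98 (Msln) to -0.34 (Wt1), and all 7 were below 0. Without the 3 acinar-rich tumors, 1 of which was control 3, they ran from -1.03 (Msln) to 0.49 (Wt1). Without control replicate 2 they ran from 1.24 (Msln) to 3.56 (Muc16), and all 7 were above 0. None of these fits called a marker.

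At TP2 the HGS2 groups did not overlap on the scaled levels. Upk3b was at 1136, 1494, 855 and 852 CPM in controls and at 301, 282 and 199 CPM in treated tumors. Msln was at 111, 174, 121 and 183 CPM in controls and at 46.3, 26.2 and 54.4 CPM in treated tumors. Muc16 was at 223, 372, 266 and 303 CPM in controls and at 125, 53.2 and 77.7 CPM in treated tumors. For these 3 genes the highest treated tumor stood well below the lowest control.

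Lrrn4 was at 403, 431, 276 and 342 CPM in TP2 controls and at 112, 198 and 42.2 CPM in treated tumors. Wt1 was at 253, 247, 198 and 190 CPM in controls and at 124, 125 and 99.7 CPM in treated tumors. Gpm6a was at 112, 179.6, 131 and 149 CPM in controls and at 96.8, 91.5 and 36.4 CPM in treated tumors. Upk1b, at 231, 222, 414 and 239.8 CPM in controls and at 117, 203 and 114 CPM in treated tumors, had a narrow gap as well. For all 7 markers every treated tumor was below every control at TP2, a pattern that 6.63% of the 16241 genes tested had. For Upk1b this rested on the scaling across libraries. Without it, the acinar-rich TP2 control 2 held 148 CPM of Upk1b and TP2 treated 2 held 198 CPM.

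No TP2 difference in HGS2 passed the test. The log2 fold changes were -2.07 for Upk3b (SE 1.00), -1.81 for Msln (SE 0.87), -1.79 for Muc16 (SE 1.13) and -1.64 for Lrrn4 (SE 0.99), and -0.95 for Wt1 (SE 0.54), -0.94 for Gpm6a (SE 0.85) and -0.93 for Upk1b (SE 0.95). The adjusted p from edgeR lay between 0.652 and 0.803, 0% of genes were called, and no marker had an unadjusted p below 0.05. These standard errors share the spread of the TP1 controls. Fitted with the 2 compared groups alone, an alternative added after the data were seen, all 7 had an unadjusted p from edgeR below 0.05, with adjusted p between 0.249 and 0.393, and 0 were called, as with limma-voom and DESeq2. The acinar-rich TP2 control 2 held the most Upk3b, Lrrn4, Gpm6a and Muc16 of its group on the scaled levels. Without the scaling across libraries it led in none of these genes, for instance with 997 CPM of Upk3b against 1108 CPM in control 1. Without the 3 acinar-rich tumors 0 markers were called.

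At TP3, HGS2 treated replicates 2, 3 and 4 held 455, 905 and 719 CPM of Upk3b, and replicate 1, left out of the test, 103 CPM. Msln was at 37.0, 163 and 143 CPM in replicates 2 to 4 and at 13.7 CPM in replicate 1. Upk1b (184, 325 and 234 CPM) and Gpm6a (142, 145 and 91.1 CPM) overlapped the TP2 controls, as did Msln and Upk3b. Lrrn4 (203, 182 and 168 CPM), Muc16 (37.8, 166 and 147 CPM) and Wt1 (96.7, 113 and 171 CPM) lay below all TP2 controls, 3 of 7 markers where 1.85% of genes did so. Without the scaling across libraries, Wt1 overlapped as well, at 174 CPM in TP3 treated 4 and 165 CPM in TP2 control 2. At TP1 no marker (0 of 7) had every treated tumor below every control, against 2.48% of genes. The TP3 log2 fold changes against TP2 controls, which the TP2 comparison shares, ran from -1.31 (Muc16, SE 1.11) to -0.14 (Upk1b, SE 0.93), with -0.98 for Lrrn4 (SE 0.96) and -0.80 for Wt1 (SE 0.54). None was called (0% of genes), none had an unadjusted p below 0.05 in edgeR, and limma-voom and DESeq2 called none.

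Between HGS2 time points no marker was called either. Treated tumors differed by -0.35 (Upk3b) to 0.95 (Gpm6a) from TP1 to TP2 and by 0.15 (Wt1) to 1.46 (Msln) from TP2 to TP3 on the log2 scale (0% of genes called in each). Control tumors of TP2 were higher than those of TP1 in all 7 markers, by 1.35 (Wt1, SE 0.55) to 1.80 (Upk3b, SE 0.99), and 1 marker, Wt1, had an unadjusted p from edgeR below 0.05 (adjusted p from edgeR 1.0), with 0% of genes called. Without TP1 control 2, that comparison called 3 markers (Upk3b 4.90, Upk1b 4.77 and Gpm6a 4.52). limma-voom and DESeq2 called no marker in these 3 comparisons. Of the other lists, no gene was called in HGS2. The further mesothelial genes had a median log2 fold change of 0.05 at TP1, -1.32 at TP2 and -0.54 at TP3, beside -0.15, -1.64 and -0.64 for the markers, and the proliferation genes 0.02 at TP2.

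The responses of the models were then compared directly, as the HGS2 change minus the 60577 change. At TP1 the differences ran from 0.61 (Msln, SE 0.93) to 1.67 (Wt1, SE 0.59), and none of the 7 was called, while 1.45% of genes were. Wt1 alone had an unadjusted p from edgeR below 0.05 (adjusted p from edgeR 0.122), and limma-voom and DESeq2 called none. Without HGS2 TP1 control 2 this comparison called 6 markers (Upk3b 4.76, Upk1b 4.45, Lrrn4 3.30, Gpm6a 4.02, Muc16 5.02 and Wt1 2.74), whereas without HGS2 TP1 controls 1 and 3 the Msln difference was -0.73 and 0 were called. At TP2 the differences ran from -1.42 (Muc16, SE 1.15) to 0.08 (Gpm6a, SE 0.90), 0 were called, 6.9% of genes were, and no marker had an unadjusted p from edgeR below 0.05 or a call by limma-voom or DESeq2. All 5 proliferation genes, by contrast, were called at TP2, for instance Ccnb1 (2.63). The 2 models are thus not shown to differ in the response of the markers, nor to respond alike.

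Before or without treatment, Wt1 was lower in HGS2 than in 60577 control tumors. Its 7 HGS2 controls ranged from 24.6 to 253 CPM and its 6 60577 controls from 365 to 436 CPM, with no overlap. Wt1 was 2.87-fold lower (log2 fold change -1.52, SE 0.29, adjusted p from edgeR 0.00010), the only marker called, where 22% of genes were called and 8.81% lower. Msln (-1.06, SE 0.45, adjusted p from edgeR 0.052), Upk3b (-1.10, SE 0.51, adjusted p from edgeR 0.075) and Muc16 (-1.13, SE 0.59, adjusted p from edgeR 0.112) were past the fold limit but not called, and Lrrn4 was at 0.15. This comparison depended on HGS2 TP1 controls. Without replicate 2, 6 markers were called (Wt1, Msln -2.02, Upk3b -2.65, Upk1b -1.64, Gpm6a -2.27 and Muc16 -2.93), and without replicates 1 and 3 together 0 were, with Wt1 at -0.99. Msln was also called without HGS2 TP1 treated 2 or TP3 treated 2. limma-voom called 5 markers here and DESeq2 3.

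Among the lists, 10 of 16 further mesothelial genes were lower in HGS2 controls, led by Dmkn (-3.32), Krt18 (-3.27), Krt8 (-3.19) and Krt7 (-2.92). Gata4 (-2.23), Bnc1 (-1.74) and Lhx9 (-1.44) were the 3 of 10 coelomic factors called, and all 3 were lower. Fibroblast genes were higher in 6 of 8 cases, for instance Dpt (4.79) and Lum (4.00), leukocyte genes in 4 of 7, for instance Adgre1 (1.71), and acinar genes in 6 of 6, for instance Ctrb1 (12.34). The acinar list summed to 56739 CPM in HGS2 TP1 control 3 and 108797 CPM in TP2 control 2. Its median was 73.0 CPM in HGS2 controls and 10.1 CPM in 60577 controls. Adipocyte genes were higher in 3 of 8 cases, for instance Cfd (4.43), and endothelial genes in 2 of 6, Cdh5 (1.40) and Vwf (1.26). Of the epithelial list, 6 of 11 were lower, Krt19 among them (-2.86), and 1 was higher. Both granulosa genes tested were lower, Foxl2 (-6.82) and Inha (-2.59). Of 6 tested relatives of the markers, Lrrn1 (3.41), Muc1 (2.66) and Lrrn4cl (1.08) were among 4 called higher, and Lrrn2 (-1.21) was lower. Tubb3 was higher (2.91) and Syt1 lower (-1.49). The share of these other tissues in the Wt1 difference was not tested.

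Between the cell lines, where no host tissue is present, the order was different. Lrrn4 was at 677 and 496 CPM in the HGS2 line and at 166 and 165 CPM in the 60577 line, 3.59-fold higher in HGS2 (log2 fold change 1.84, SE 0.26, adjusted p from edgeR 0.012). It was the only marker called, where 15.9% of 13742 genes were called and 7.55% higher. Gpm6a was at 373 and 292 CPM in HGS2 and at 175 and 168 CPM in 60577 (0.97, SE 0.23, adjusted p from edgeR 0.040), just inside the fold limit. Upk3b was lower in HGS2 without a call (-1.38, SE 0.37, adjusted p from edgeR 0.055). Muc16 differed most between libraries of 1 line, at 583 and 160 CPM in HGS2. Wt1, called between the control tumors, was at 295 and 283 CPM in the HGS2 line and at 415 and 397 CPM in the 60577 line, without overlap but with no call (-0.47, SE 0.20, adjusted p from edgeR 0.157). With 2 libraries a line, leaving 1 out left a single library in that arm, which was assumed to vary like those of the other line. The calls shifted with each library, and Lrrn4 was lost without either 60577 library (adjusted p from edgeR 0.105 and 0.131), while Upk3b (-1.87) was called without HGS2 library 1, and Gpm6a (1.21) and Muc16 (1.30) without HGS2 library 2. DESeq2 called 3 markers.

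The lines differed in the related lists as well. Of 16 further mesothelial genes tested, 4 were higher and 4 lower in the HGS2 line, with Nkain4 higher (2.88) and Dmkn (-6.86), Krt8 (-3.32) and Krt18 (-3.01) lower. Gata4 (-3.75) and Lhx9 (-3.12) were lower and Gata6 (1.14) higher. Of the epithelial list 6 of 10 were lower, Cldn3 (-9.32) and Epcam (-5.38) among them, and 6 of 8 fibroblast genes were higher, for instance Col1a1 (4.34). Gpm6b, the close relative of Gpm6a, was lower (-3.15), in the opposite direction to Gpm6a, and so was Syt1 (-3.52).

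How the markers varied together was described after subtracting the mean of each group from log2 CPM, which leaves only differences between tumors of the same model, time point and treatment. Over 33 tumors, Pearson's r across the 21 pairs of markers ranged from 0.59 to 0.95 with a median of 0.79. Within the 17 60577 tumors the median was 0.63 and the range -0.0047 to 0.92. Upk3b, Lrrn4 and Gpm6a varied together (r from 0.90 to 0.92), Msln varied with Muc16 (0.87) and Upk1b (0.85), and Wt1 had r of -0.0047 with Gpm6a, 0.06 with Upk3b and 0.12 with Lrrn4. Within 16 HGS2 tumors the median was 0.82 and the range 0.57 to 0.96, and Wt1 varied with Upk3b and Lrrn4 (0.92 each). The HGS2 TP1 controls spread widely within their group (Upk1b at 17.2, 265 and 3.22 CPM, Muc16 at 4.25, 252 and 10.55 CPM). They therefore weigh heavily in r over the 33 tumors and within HGS2, and r without them was not computed. These are descriptions over tumors that share depth and the amount of other tissue, and no test was made.

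**Figure D4:**
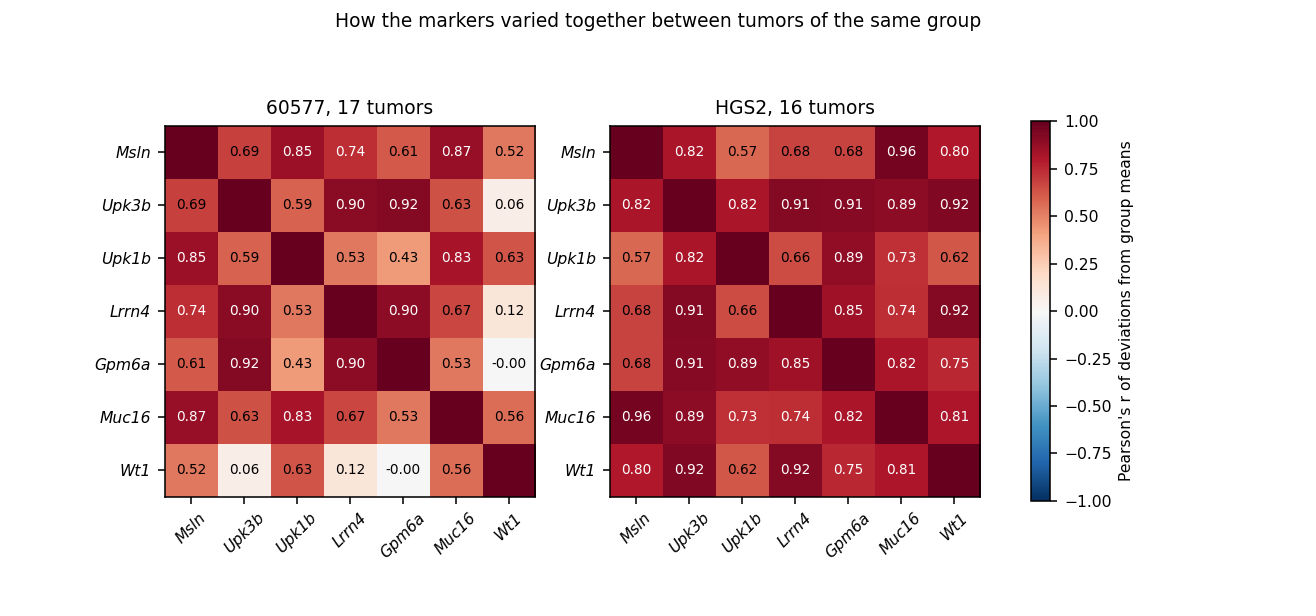
Pearson's r between each pair of markers over 17 60577 tumors (left) and 16 HGS2 tumors (right), on deviations of log2 CPM from the group mean. In HGS2, where the widely spread TP1 controls weigh heavily, every pair is at 0.57 or above, and in 60577 Wt1 is near 0 with Gpm6a, Upk3b and Lrrn4.

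The genes whose deviations were most like those of each marker over the 33 tumors were Ephb6 (r = 0.94), Kank1 (0.89) and Krt19 (0.88) for Msln, and Ephb6 (0.93), Lamc3 (0.92) and Ccdc187 (0.91) for Muc16. For Upk3b they were Ezr (0.97), Tmem98 (0.96) and Kcnab1 (0.96), and for Gpm6a Prr15 (0.93), Ezr (0.92) and Nkain4 (0.91). Ephb6 thus stood first for both mesothelin and its mucin partner, and Ezr, which encodes the membrane and actin linker ezrin, among the first for Upk3b and Gpm6a. For Upk1b the genes were Flt4 (0.96), Esyt3 (0.96) and Dpysl5 (0.94), for Lrrn4 Aplp1 (0.93), Cxadr (0.92) and Foxo6 (0.92), and for Wt1 Myrf (0.94), Crb2 (0.94) and Ddr1 (0.92). For the lists, r between the mean deviations of the list and of the markers was taken over the same tumors. It was 0.92 over 33 tumors for the other mesothelial genes, 0.44 for the coelomic factors, 0.37 for the epithelial list and 0.25 for the fibroblast list, and the other 8 lists with tested genes lay between -0.22 (endothelial) and 0.11 (adipocyte). Within 60577 the coelomic factors were at 0.96, the other mesothelial genes at 0.83, the epithelial list at 0.80, the granulosa and proliferation lists at 0.52 each and the acinar list at 0.41, and the rest lay between 0.02 (leukocyte) and 0.36 (relatives of the markers and adipocyte). Within HGS2 the other mesothelial genes were at 0.93, the coelomic factors at 0.38, the epithelial list at 0.32 and the fibroblast list at 0.30, while the endothelial list was at -0.58 and the rest lay between -0.13 (proliferation) and 0.07 (adipocyte). The widely spread HGS2 TP1 controls weigh on all values here over the 33 tumors and within HGS2. The differences between models were not tested.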

How the data were processed

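Total RNA of 34 tumors and 4 cell line libraries had been depleted of ribosomal RNA and sequenced strand-specifically. Per the submitters' notes, the authors trimmed reads with Trim Galore 0.6.5, mapped them with STAR 2.7.0f to GRCm38 and quantified genes by RSEM. What was deposited are the authors' expected counts, neither normalized nor filtered, in separate tables for tumors and lines. Estimated counts can split reads among similar genes.

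Expected counts were rounded. Symbols and positions came from GENCODE M21, which held 55227 of 55487 genes. Genes that reached 1 CPM in 25% or more of the libraries were tested with edgeR 4.0.16 (quasi-likelihood, TMM scaling, R 4.3.3, two-sided), with the 5 groups of a model fitted together, both models together for comparisons between models, and the lines alone. The SE is the log2 fold change divided by the root of the F statistic. CPM levels used TMM factors over all 38 libraries, so levels of lines and tumors rest on that scaling, and for correlations a prior count of 2 was added before the log2. RPKM divided CPM by the summed exon length. Alternatives used limma 3.58.1 (voom) and DESeq2 1.42.0. The pipeline was tested on simulated data. Figures came from matplotlib 3.10.9 and tables from pandas 2.3.3 (Python 3.11.15).

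The 7 members and all lists were chosen with earlier results of these data known. Named from the lists were, at most 4 per list and comparison, called genes among those that changed most on the log2 scale, in comparisons in which a marker was called. Between treated 60577 TP3 and TP2, where Upk1b was called, only the further mesothelial list was named from, and genes called in other lists are not given. Exceptions, chosen after their values were seen, are genes given for their level in the lines (Calb2, Sox17, Pax8, Wfdc2, Epcam, Krt19, Krt18, Krt8, Cdh1, Upk2), Dmkn between treated 60577 TP2 and TP1, and Ccnb1 in the difference between models. For likeness, the 3 genes with the highest r were named for each marker. Libraries of a group were taken as separate animals or cultures, although the labels do not say so for the cultures. All 44 pairs of replicates differed by more than counting noise (chi-square per degree of freedom of at least 9.38). Replicate numbers did not enter the fits and were used as a block in an alternative. Deviations from the group means of tumors with the same number correlated above 0.1 in every pair between TP2 control and TP2 treated tumors (0.114 to 0.144 in 60577 and 0.138 to 0.296 in HGS2), and in no other pair of groups. These correlations are weak and were found by looking over all pairs of groups, and the labels do not say what a number marks. No fit paired samples at TP2 alone. The main fits used no pairing, and the block applied the numbers to all groups of a model.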

Additional observations from a re-analysis of the deposited data

Results flagged for a closer look

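Among 32 groups of 4 tumors tested for an outlier (Dixon's test at the 95% level, on the 7 markers and their sum), 2 values stood apart, where chance gives about 1 in 20. Upk1b in HGS2 TP2 control 3 was at 414 CPM, against 222 to 240 CPM in the other 3 controls. The gap was 0.908 of the range of the group. Wt1 in 60577 TP2 treated 1 was at 192 CPM, against 289 to 305 CPM in the other 3 treated tumors, a gap of 0.863 of the range. Without HGS2 TP2 control 3 or 60577 TP2 treated 1, the calls of Upk1b and Wt1 at TP2 were unchanged.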

How the results depend on the processing

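Of 112 results, 7 markers in 16 comparisons, 38 changed sign in some setting, none of which had an adjusted p from edgeR below 0.05. In the settings other than leaving out 1 library, 965 of 1029 values kept their direction and side of the threshold, 15 lost and 13 gained the call, and 36 changed sign. Without 1 library at a time, the figures were 1996 of 2107, 11, 25 and 75. The cause was not tested. Counts of called markers moved by over 1.5 times as follows. With both models fitted together, the count was 0 at 60577 TP1 (6 before), 0 at TP2 (2), 3 at TP3 (5) and 0 between treated TP3 and TP2 (1). With the replicate number as a block it was 4 at 60577 TP2. Without a filter on low counts or with edgeR's filterByExpr, it was 0 between treated 60577 TP3 and TP2. Between control tumors, where 1 marker was called, limma-voom called 5, DESeq2 3, and the fit without HGS2 TP1 controls 1 and 3 called 0. Between the lines, where 1 was called, DESeq2 size factors gave 2, no filter 3 and DESeq2 3.

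The signs that changed were these. At HGS2 TP1 they were Msln (0.15), Upk1b (1.49), Lrrn4 (0.31), Gpm6a (0.88) and Muc16 (1.28) with limma-voom, Upk1b (0.46), Lrrn4 (0.096), Gpm6a (0.42) and Muc16 (0.19) with the block, Upk3b without the acinar-rich tumors (-0.42), and Upk3b (-1.39) and Wt1 (-0.34) without TP1 controls 1 and 3. Without those controls, the differences between models at TP1 were below 0 for Msln (-0.73), Upk1b (-0.27), Lrrn4 (-0.46), Gpm6a (-0.41) and Muc16 (-0.11). Between treated HGS2 TP2 and TP1 they were Upk3b (0.20) and Muc16 (0.49) with limma-voom and Lrrn4 (-0.20) with the block. At HGS2 TP3 it was Msln without the acinar-rich tumors (0.15), and between treated TP3 and TP2 it was Wt1 with HGS2 TP3 treated 1 (-0.050). In 60577 they were Upk1b between treated TP2 and TP1 with the block (-0.0051) and Lrrn4 between treated TP3 and TP2 with DESeq2 size factors (0.0040), no filter (0.039), filterByExpr (0.052), limma-voom (0.014) and DESeq2 (0.0042). In the same 5 settings the Upk1b difference between models at TP2 was 0.0050, 0.052, 0.034, 0.0049 and 0.0052. Between control tumors they were Upk1b without the acinar-rich tumors (0.28) or without TP1 controls 1 and 3 (0.71), and Lrrn4 with limma-voom (-0.48).

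Leaving out 1 library at a time, counts ranged from 1 to 3 at 60577 TP2, 0 to 1 between treated 60577 TP2 and TP1, 0 to 1 between treated TP3 and TP2, 0 to 3 between HGS2 controls, 0 to 6 for the difference between models at TP1, 1 to 6 between control tumors and 0 to 3 between the lines. Values that changed sign had these ranges. At 60577 TP2, Muc16 ranged from -0.61 to 0.16 (above 0 without TP2 control 3). Between treated 60577 TP2 and TP1 the ranges were -0.16 to 0.27 (Upk3b), -0.087 to 0.29 (Upk1b) and -0.0012 to 0.51 (Gpm6a), between treated TP3 and TP2 -0.43 to 0.0058 (Upk3b), -0.23 to 0.23 (Lrrn4) and -0.092 to 0.39 (Gpm6a), and between controls -0.15 to 0.055 (Upk3b), -0.41 to 0.069 (Lrrn4) and -0.20 to 0.046 (Gpm6a). At HGS2 TP1 they were -1.21 to 1.24 (Msln), -1.08 to 3.17 (Upk3b), -0.72 to 3.08 (Upk1b), -1.81 to 2.05 (Lrrn4), -0.86 to 2.62 (Gpm6a) and -0.82 to 3.56 (Muc16), with all 7 markers above 0 without TP1 control 2. At HGS2 TP3 they were -0.71 to 0.069 (Msln), -0.40 to 0.095 (Upk1b) and -0.31 to 0.0079 (Gpm6a). Between treated HGS2 TP2 and TP1 they were -0.17 to 0.71 (Msln), -0.83 to 0.80 (Upk3b), -0.58 to 1.56 (Lrrn4), -0.57 to 0.73 (Muc16) and -0.61 to 0.33 (Wt1), and between TP3 and TP2 -0.13 to 0.31 (Wt1). The difference between models ranged from -0.56 to 3.30 (Lrrn4) at TP1 and from -0.35 to 0.22 (Upk1b) and -0.16 to 0.41 (Gpm6a) at TP2. Between control tumors the ranges were -1.64 to 0.26 (Upk1b) and -1.02 to 0.44 (Lrrn4), and between the lines -0.84 to 0.17 (Msln), -0.83 to 0.048 (Upk1b) and -0.65 to 1.30 (Muc16).

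Outside the TP2 comparisons, samples that share a replicate number did not deviate together in every pair. Over all pairs of groups, correlations ranged from -0.418 to 0.318 over 31 pairs in 60577 and from -0.488 to 0.366 over 27 pairs in HGS2, and 3 of 17 and 4 of 16 tumors were closest to their own number. The block changed no call but those of Msln and Upk1b at 60577 TP2. Depth was not the limit for the markers, whose spread between HGS2 tumors exceeded counting error, and 2 libraries a line limit the comparison of lines.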
